A study of Mus musculus with 6 samples.

Results

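Among 127691 autosomal regions of the mouse genome that were read deeply enough in all 6 libraries of the study, 1762 differed by at least 20 percentage points in DNA methylation between the 2 libraries of untreated colon epithelium. These are the control-variable regions described here. A region qualified for the comparison with at least 50 methylation calls in each of the 6 libraries, out of 209687 regions deposited. A region's level is its methylated calls as a percentage of all its calls, and a difference is given in percentage points as replicate 0 minus replicate 1. The regions were chosen by the levels of the 2 control libraries themselves, so the differences between the controls are a description and carry no test.

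DNA methylation at a CpG is present or absent on each DNA copy, so a level between the extremes means that methylated and unmethylated copies are mixed among the cells or alleles sampled. In inbred mice, which share one genome, some loci are still known to differ in methylation between individuals. The classic cases, called metastable epialleles, lie at retrotransposons near the agouti and axin genes and are set early in development. In bulk tissue, levels of intermediate regions also move with the mixture of cell types. For any region here these cannot be told apart, and the files tie no region to a gene.

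All 6 libraries were made from scraped colon epithelium of C57BL/6 mice, an inbred strain, aged 18 weeks. The 3 groups of 2 libraries were untreated controls, mice given azoxymethane (AOM, a colon carcinogen) and dextran sulfate sodium (DSS, which inflames the colon), and mice given both agents plus curcumin, a polyphenol of turmeric, here called the curcumin group. Per the labels' protocol the proximal end of the colon and tumors on its right side were cut away and the mucosa of the rest was scraped off, so each library is a mixture of the cells scraped. The labels do not say whether the 2 libraries of a group came from separate mice or from pools, nor from which stretch of the remaining colon each was scraped. The labelled cell type was not checked against marker genes, because methylation regions without gene names offer none.

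Each library held 24682973 to 30727568 methylation calls, with the fewest in control 1. At the control-variable regions the median number of calls ran from 89 in control 1 to 113 in AOM/DSS 0, against 130 to 161 over all 127691 regions. On the mitochondrial genome, which is taken to be largely free of CpG methylation, 0.956 to 1.01% of calls read as methylated in the 6 libraries, with 0.956% in control 0 and 0.991% in control 1. This share counts calls that bisulfite left unconverted, and it was similar in both controls.

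The 1762 regions make up 1.38% of the regions compared, a share that the rule itself sets. Control 0 was higher at 1040 of them (59.0%) and control 1 at 722. The median difference was 23.3 points and the largest 62.4 points. It reached 30 points at 244 regions and 40 points at 35. Just inside the threshold stood the regions at 137841647 to 137841809 of chromosome 1 and 93334768 to 93335023 of chromosome 5, with 40% against 20% and 60% against 40%. Just outside stood those at 65121139 to 65121253 of chromosome 18 and 25742255 to 25742527 of chromosome 15, with 81.2% against 61.2% and 42.7% against 22.7%.

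Depth sets how precise such a difference is. If every call were an independent draw, the counting SD of the difference between the controls would have a median of 6.75 points at these regions. Calls of one read are not independent, so this SD is a lower limit. Of the 1762 regions, 840 had under 75 calls in at least 1 library, while 548 had at least 100 calls in each and 89 had at least 200. The share of regions past the rule fell with depth, from 2.71% at 50 to 74 calls to 0.385% from 200 to under 300 calls. No region with 500 or more calls in every library, of 2006 such regions, was 20 points apart in any pair. Deep regions were also mostly low in methylation. Over the 27342 with at least 200 calls, the mean of the 4 AOM/DSS and curcumin libraries had a median of 2.60%, against 21.1% over all regions compared. Only 4364 of the 27342 lay at 20 to 80%, where the rule can be met most easily. The part of level in the fall with depth was not tested.

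The same rule was applied to the pairs of the treated groups, to set the controls beside other libraries of one label. The AOM/DSS pair had 976 regions at least 20 points apart (0.764%) and the curcumin pair 852 (0.667%). The ratio of the control pair's share to the others was larger at higher depth. At 50 to 74 calls the shares were 2.71%, 1.83% and 1.71% in the control, AOM/DSS and curcumin pair. From 150 to under 200 calls they were 0.741%, 0.194% and 0.114%, and with at least 200 calls 89, 17 and 10 of 27342 regions were past the rule.

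Since control 1 was the shallowest library, the pairs were also compared at like precision, a setting added once results had been seen. Taken were regions where the 4 libraries outside the pair averaged 20 to 80% and where the counting SD of the pair was at most 5 points. Its median was 4.31, 4.28 and 4.33 points in the 3 pairs. In the control pair 200 of 11079 such regions (1.81%) were 20 points apart, in the AOM/DSS pair 61 of 11777 (0.518%), and in the curcumin pair 29 of 10210 (0.284%). The SD of the difference over these regions was 7.59 points between the controls, 6.55 points in the AOM/DSS pair and 6.08 points in the curcumin pair. With 1 pair per group there is no test of whether groups differ in this spread.

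**Figure D1:**
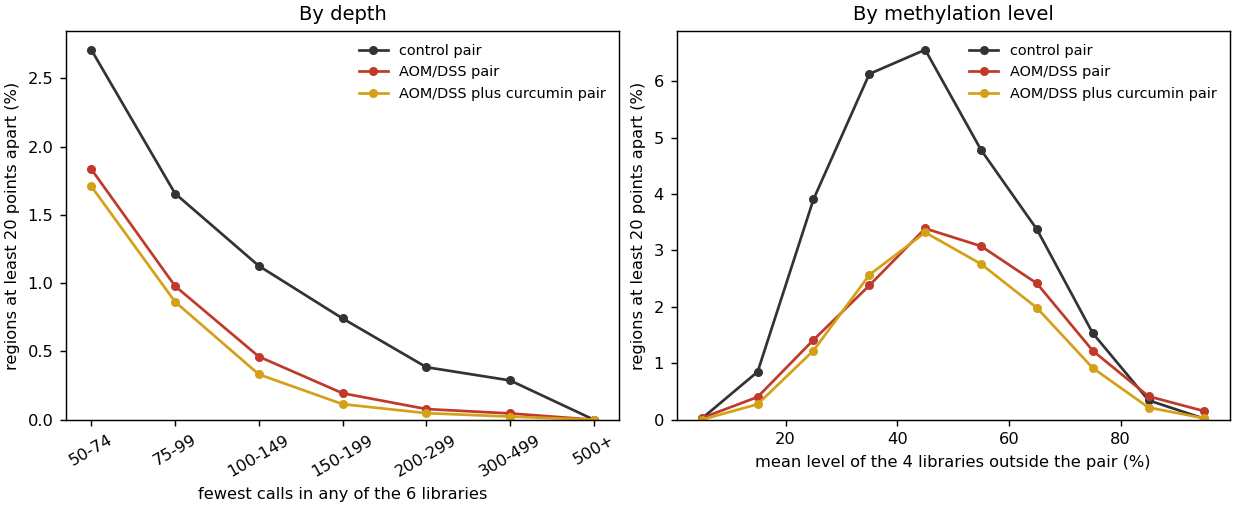
Percent of autosomal regions whose 2 libraries of a group differ by at least 20 points, by the fewest calls in any library (left) and by the mean level of the 4 libraries outside the pair in steps of 10 points (right). Points joined by lines stand for the control (black), AOM/DSS (red) and curcumin pair (yellow), and the control pair peaks at 6.55% for regions of 40 to 50%.

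The control-variable regions sat at intermediate methylation, where the rule can be met most easily. The mean of the 4 treated libraries, which took no part in choosing them, had a median of 45.6% with quartiles of 32.8 and 59.8%, against 21.1% with quartiles of 2.47 and 72.3% over all regions compared. Among regions that these 4 libraries put at 40 to 50%, 6.55% were 20 points apart between the controls, among those at 20 to 30% 3.91%, and among those at 80 to 90% 0.343%. For the other pairs the level is the mean of the 4 libraries outside the pair. They also peaked at 40 to 50%, with 3.39% (AOM/DSS) and 3.32% (curcumin). The pairs were farther apart on the lower side of this peak. At 20 to 30% the AOM/DSS and curcumin pairs had 1.41% and 1.23%, and at 70 to 80% 1.22% and 0.916% against 1.53% in the control pair. At 80 to 90% the AOM/DSS pair had 0.414%, above the control pair. It was above it also at both extremes, where few regions passed. At 90 to 100% these were 20 regions (0.152%) against 2 (0.0171%), and at 0 to 10% 16 (0.0294%) against 11 (0.0204%).

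By CpG content the control-variable regions were smaller and less dense than the regions compared, as were those past the rule in the other pairs. They held 3 to 38 CpGs with a median of 6, over a median span of 179.5 bases, against 9 CpGs and 248 bases over all regions compared. Their CpG density had a median of 3.61 CpGs per 100 bases with quartiles of 2.89 and 4.87, against 4.01 with quartiles of 3.02 and 5.88 over all regions. CpG islands, the dense stretches at many promoters, are mostly unmethylated. Regions with 20 or more CpGs made up 3.52% of the chosen regions and 17.7% of all. The regions past the rule in the AOM/DSS and the curcumin pair had medians of 6 CpGs each, spans of 163 and 157.5 bases and densities of 3.70 and 3.85, and 2.56% and 3.64% of them held 20 or more CpGs. Among regions that the 4 treated libraries put at 20 to 80% the order turned. There the chosen regions had a median of 3.57 CpGs per 100 bases and all regions 3.32.

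Within each band of level from 20 to 80%, the share of variable regions rose with CpG density. For regions at 40 to 60% in the 4 treated libraries, 4.29% of the least dense class (up to 3.02 CpGs per 100 bases), 5.44% and 6.57% of the middle classes and 10.4% of the densest class (over 5.88) were 20 points apart between the controls. The classes are the quartiles of density over all regions compared. The fewest calls had a median of 91 in the least dense class and 91 in the densest. Calls of one read are not independent, so equal numbers of calls need not mean equal precision. The part of this in the rise was not tested. At 20 to 40% the shares ran from 3.79% to 6.6% and at 60 to 80% from 2.02% to 3.23%. Below 20% the order was another, with 0.222%, 0.259%, 0.146% and 0.0454% from the least dense to the densest class. For the other pairs the band was set by the 4 libraries outside the pair, so the sets of regions differ in part. There the AOM/DSS pair rose likewise at 40 to 60%, from 2.46% to 5.26%, and the curcumin pair from 2.15% to 5.23%. All 3 pairs rose with density in this band.

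The largest differences were read at the 10 regions, 5 per direction, that had at least 100 calls in each library. The 95% Wilson interval of each of their levels reached at most 9.25 points to either side of the interval's own middle, counting error only. On chromosome 1 the region from 88202041 to 88202365 (build mm9, as for all coordinates, 16 CpGs) was methylated at 51.8% in control 0 and 7.04% in control 1. AOM/DSS 0 and 1 had 32.1% and 26.4%, and the curcumin libraries 41.3% and 19.1%. All 4 treated libraries lay between the controls, and the curcumin pair was itself 22.2 points apart.

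On chromosome 6 the region from 18324701 to 18324911 (5 CpGs) had 49.7% in control 0 and 6.03% in control 1. The treated libraries had 35.4% and 25.4% (AOM/DSS) and 22% and 32.7% (curcumin). On chromosome 12 the region from 52539645 to 52539871 (6 CpGs) had 56.3% and 12.8% in the controls, 39.8% and 45.5% in AOM/DSS and 40% and 34.2% with curcumin. In both regions the treated libraries again lay between the controls.

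The region on chromosome 9 from 14555263 to 14555750 combined depth and size, with 37 CpGs and 265 to 423 calls. Control 0 had 48.3% and control 1 8.65%, while the 4 treated libraries stayed close together, at 25.4% and 20.3% (AOM/DSS) and 27.6% and 24.2% (curcumin). The next region, 10 bases on with 38 CpGs, had 3.13% in control 0 and 2.25% in control 1, and 0.334 to 12.8% in the treated libraries, so the controls did not show the gap there. The fifth region, on chromosome 6 from 51383844 to 51384163 (11 CpGs), had 63.2% and 23.6% in the controls, 45.1% and 21.5% in AOM/DSS and 38.9% and 36.5% with curcumin. Here AOM/DSS 1 was slightly below control 1.

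In the other direction, the region on chromosome 5 from 148114515 to 148114875 (11 CpGs) had 14.8% in control 0 and 62.3% in control 1. AOM/DSS 0 lay near control 0 with 19.9%, AOM/DSS 1 had 36.4%, and the curcumin libraries had 42.2% and 40.4%. On chromosome 13 the region from 56855027 to 56855497 (23 CpGs) had 30.7% and 68.0% in the controls, 51.4% and 68.2% in AOM/DSS and 50.4% and 38.4% with curcumin. On chromosome 4 the region from 148531823 to 148532089 (8 CpGs) had 37.1% and 72.7%, then 32.7% and 59.0% in AOM/DSS and 42.2% and 47.8% with curcumin. In these 3 regions AOM/DSS 1 exceeded AOM/DSS 0, the direction of the controls.

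At the last 2 regions control 1 stood above all other libraries. On chromosome 19 from 43547018 to 43547269 (7 CpGs) control 1 had 57.5%, against 21.7% in control 0 and 16.5 to 27.6% in the treated libraries. On chromosome 12 from 25178290 to 25178608 (30 CpGs, 362 to 1095 calls) control 1 had 60.8%, control 0 25.6%, AOM/DSS 41.2% and 25.6%, and the curcumin libraries 32.0% and 31.4%. At both, control 1 was above the 5 other libraries. At the first these 5 spanned 16.5 to 27.6%, and at the second AOM/DSS 0 lay apart from the other 4.

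The chosen regions clustered along the chromosomes more in the control pair than in the other pairs. Of the 1762 regions, 121 (6.87%) had another within 1000 bases, against 22 of 976 (2.25%) in the AOM/DSS pair and 13 of 852 (1.53%) in the curcumin pair. Any region compared lay that near 57.7% of the control-variable regions, and 55.3% and 55.9% of those of the other pairs, which are similar shares. The control list is also the longest, which by itself raises the count of members near each other. Of the 64 neighbouring pairs of members, 61 differed in the same direction (95.3%), against 9 of 11 and 4 of 7 in the other groups.

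Each pair was therefore also read against its own background. Where the next region within 1000 bases was itself at 20 to 80% in the libraries outside the pair, it passed the rule in 109 of 634 such neighbours of control-variable regions (17.2%), against 4.38% of such neighbours of any region. A member with a neighbour on each side counts with both. In the AOM/DSS pair these shares were 4.87% and 2.25%, and in the curcumin pair 3.26% and 2.12%. Close neighbours can be covered by the same DNA fragments, and the part of shared reads in this was not tested.

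The difference between the controls faded with distance. Up to 250 bases away, the 415 neighbours at 20 to 80% differed by a mean of 9.86 points in the direction of the chosen region, and from 501 to 1000 bases 201 neighbours did so by 5.64 points. From 2001 to 5000 bases the mean was 4.28 points over 614 neighbours, and from 10001 to 50000 bases 0.945 points. Beyond 500 bases these means moved with a few stretches. Without the 46 members that lay in groups of 3 or more, the mean was 8.22 points up to 250 bases, 2.31 points from 501 to 1000 bases and 1.66 points from 2001 to 5000 bases. In the AOM/DSS pair the mean was 3.55 points up to 250 bases and 0.141 points from 2001 to 5000 bases, and in the curcumin pair 0.926 and -0.0610 points.

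**Figure D2:**
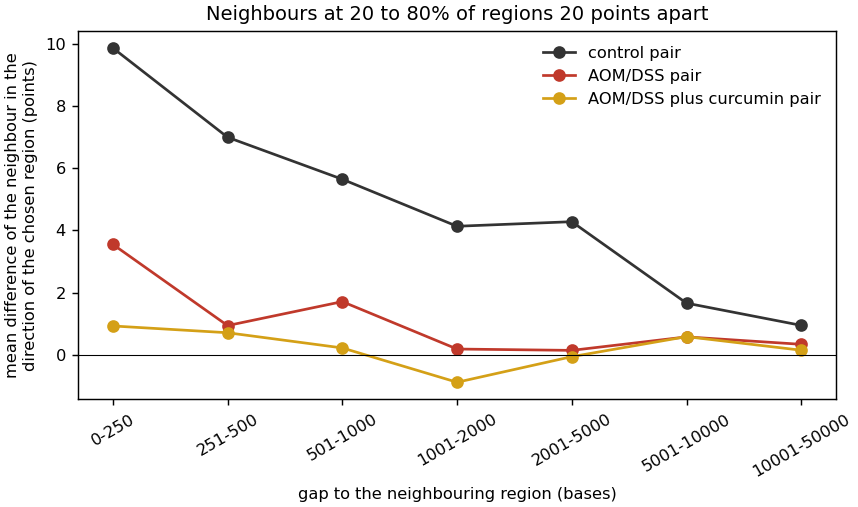
Mean difference, in points, of neighbouring regions at 20 to 80% in the direction of the chosen region, by the gap in bases, for the regions 20 points apart in the control (black), AOM/DSS (red) and curcumin pair (yellow). The control curve starts at 9.86 points and ends at 0.945, above the other curves at each distance.

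In 5 places 3 members followed each other with gaps of at most 1000 bases and one direction. On chromosome 5 the run from 148113310 to 148114875 spanned 1566 bases. Its first region (7 CpGs) had 9.68% in control 0 and 64.8% in control 1, with 31.7% and 32.8% in AOM/DSS and 47.2% and 43.8% with curcumin. The second (11 CpGs, from 148113522) had 19.9% and 71.2% in the controls, 33.1% and 40.7% in AOM/DSS and 46.6% and 30.1% with curcumin, and the last is the chromosome 5 region with 14.8% and 62.3% above. The 4 treated libraries lay between the controls in all 3. Of the 12 other regions within 5000 bases none was 20 points apart between the controls. Control 1 was higher at 10 of the 12, the last of the stretch with 15.5% and 32.3%. Most of these 10 had only 0 to 3.85% in both controls, so the sign there rests on few methylated calls.

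On chromosome 1 the run from 88205366 to 88207335 belonged to a longer group, in which 6 members lay within 6817 bases and all were higher in control 0. The run's regions had 56.1% and 13.9%, 44.7% and 17.7%, and 71.4% and 32.4% in control 0 and 1. The AOM/DSS libraries had 54.9% and 26.4% at the first, 31.9% and 31.1% at the second, and 57.1% and 53.6% at the last. With curcumin the levels were 34.5% and 31.6%, 31.2% and 38.3%, and 47.7% and 50.8%. Only at the first region did AOM/DSS 0 come near control 0. A further member from 88208373 had 47.9% in control 0 and 20.2% in control 1, and the deepest, from 88202041, is given above.

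The run on chromosome 10 from 126603701 to 126605020 was higher in control 1, with 25.6% and 63.8%, 23.3% and 52.8%, and 13.6% and 50% in control 0 and 1. AOM/DSS 0 and 1 differed the same way at all 3, with 18.8% and 41.8%, 19.1% and 32.2%, and 13.9% and 32.2%. The curcumin libraries had 40% and 31.7%, 27.7% and 37.4%, and 36.0% and 34.1%, with no common direction. Here AOM/DSS 0 was below control 0 at the first 2 regions and within 1 point of it at the last, and AOM/DSS 1 was between the controls. The last region had only 56 to 88 calls per library.

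The run on chromosome 2 from 74530122 to 74531110 was higher in control 1 too, with 23.5% and 50.7%, 24.5% and 55.3%, and 27.8% and 56.6%. It belonged to a group of 6 members within 9557 bases, all 6 higher in control 1. The AOM/DSS libraries had 26.4 to 39.0% in the run and the curcumin libraries 27.6 to 51.5%. Of 14 regions compared within 5000 bases of the run, 13 were higher in control 1, the 6 members among them. On chromosome 6 the run from 51383433 to 51384660 was higher in control 0. Around the region with 63.2% and 23.6% given above, its outer regions had 38.1% and 16.5%, and 39.6% and 16.9%. The treated libraries had 27.5 to 32.4% at the first of these and 19.4 to 32.3% at the second. The direction of a run was not shared by all regions around it. Of the other regions within 5000 bases, 10 of 12 shared it on chromosome 5 and 7 of 8 on chromosome 2. On chromosomes 10, 1 and 6 these were 4 of 8, 2 of 4 and 1 of 3. On chromosome 10 the region from 126607035 went the other way, with 56.8% in control 0 and 43.0% in control 1.

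**Figure D3:**
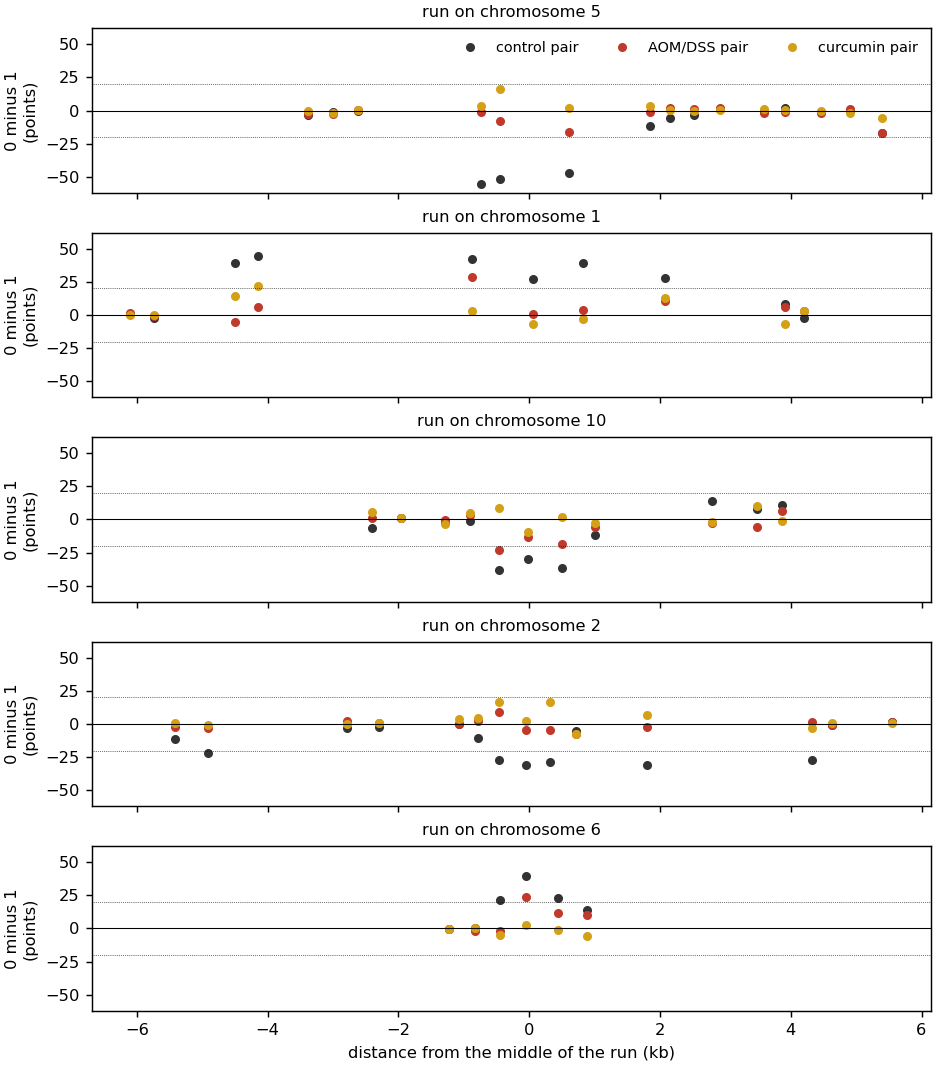
Difference of replicate 0 minus replicate 1, in points, at each region compared within 5000 bases of the 5 runs, against the distance in kb from the middle of the run, for the control (black), AOM/DSS (red) and curcumin pair (yellow). Dotted lines mark 20 points in either direction, and at the 3 regions of each run the control points lie beyond a line while the curcumin points lie between both.

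In the 4 treated libraries, which the rule did not use except for depth, the chosen regions mostly stood between the controls. Over the 1040 regions higher in control 0, the mean level was 58.7% in control 0 and 33.7% in control 1. It was 48.1% and 45.5% in AOM/DSS 0 and 1, and 46.1% and 45.5% in curcumin 0 and 1. Over the 722 regions higher in control 1, the controls had 36.5% and 61.6%, the AOM/DSS libraries 44.3% and 47.6%, and the curcumin libraries 47.8% and 47.4%. The rule picks wide gaps, counting error included, and its part in this order was not tested.

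All 4 treated libraries lay between the controls at 976 of the 1762 regions (55.4%), and the mean of the 4 at 1635 (92.8%). All 4 lay above both controls at 5 regions and below both at 17. The share of such regions over all regions compared is not given here, so these counts have no background. The mean of the 4 was nearer to control 0 at 978 regions (55.5%) and nearer to control 1 at the others. AOM/DSS 0 on its own was nearer to control 0 at 1112 regions (63.1%), whereas AOM/DSS 1, curcumin 0 and curcumin 1 were nearer to it at 51.0%, 50.3% and 52.3%. Without AOM/DSS 0 the mean of the other 3 was nearer to control 0 at 51.8%.

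**Figure D4:**
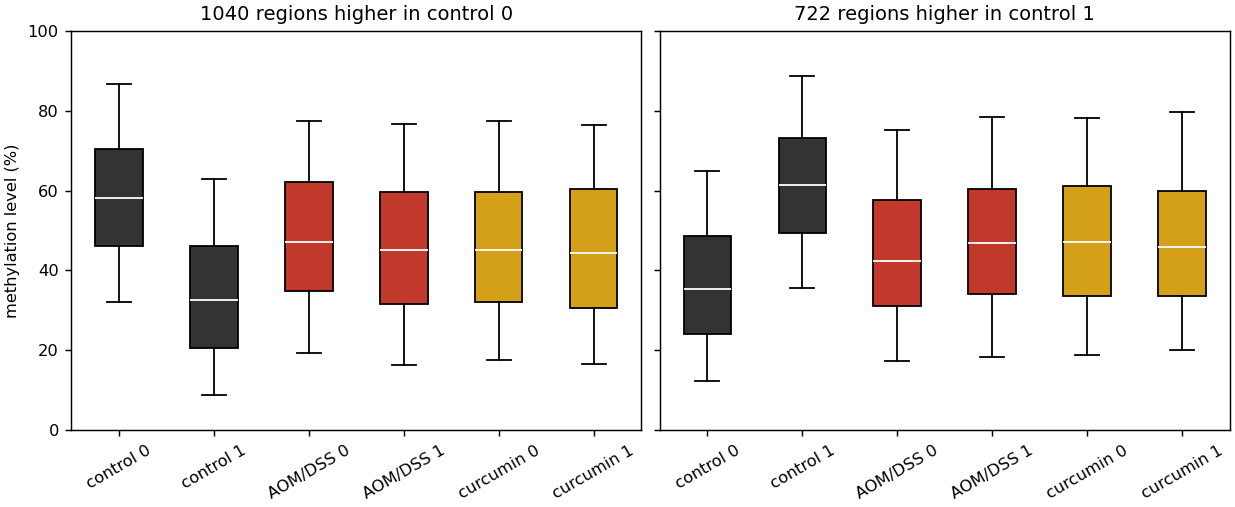
Methylation level in percent of the control-variable regions in each library, for the 1040 regions higher in control 0 (left) and the 722 higher in control 1 (right). Boxes show quartiles with the median as a white line and whiskers the central 90%, and the 4 treated libraries stand between the controls in both panels.

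The difference within the AOM/DSS pair shared its direction with the control pair at a larger share of the chosen regions than the difference within the curcumin pair did, and this contrast was not tested. AOM/DSS 0 minus AOM/DSS 1 had the sign of control 0 minus control 1 at 1089 of the 1762 regions (61.8%), and the curcumin difference did so at 897 (50.9%). Over all 127691 regions these shares were 50.8% and 49.4%, and over the 40049 regions at 20 to 80% in the 4 treated libraries 52.5% and 50.3%. At the regions higher in control 0, AOM/DSS 0 exceeded AOM/DSS 1 by a median of 2.45 points, and at those higher in control 1 the median was -3.18 points. The curcumin medians were 0.634 and 0.445 points. No library is shared between these pairs. The replicate numbers are names only, as far as the labels say.

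Across the 1762 regions the differences of the control and AOM/DSS pairs had Pearson's r of 0.303 (Spearman's 0.284), and those of the control and curcumin pairs 0.0132. These are correlations across regions, which share libraries and are not replicates. The first grew with depth. It was 0.251 for the 840 regions with fewest calls of 50 to 74, 0.370 for the 329 from 100 to under 150, 0.495 for the 130 from 150 to under 200 and 0.493 for the 89 with at least 200. The second was 0.0176, -0.0104, 0.125 and -0.0581 in the same classes. From 150 to under 200 calls the AOM/DSS pair had the sign of the controls at 98 of 130 regions (75.4%). The first was positive on 19 of 19 autosomes, from 0.116 to 0.470. Over all 127691 regions, small differences included, it was 0.0866, and over the 40049 regions at 20 to 80% it was 0.101.

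**Figure D5:**
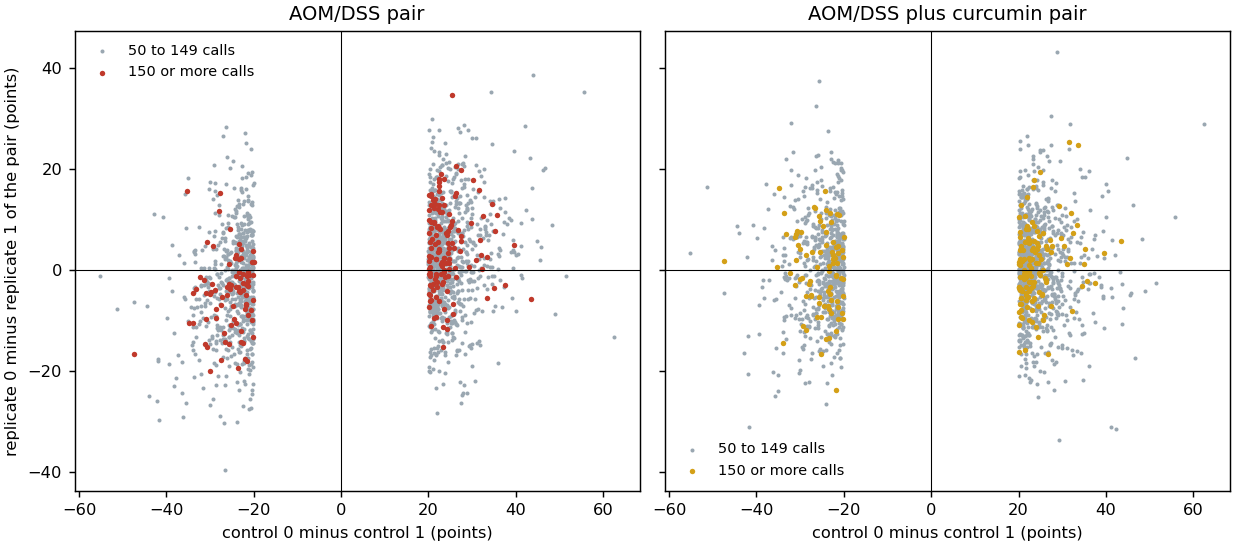
Difference of replicate 0 minus replicate 1 in the AOM/DSS pair (left) and the curcumin pair (right) against that of the control pair, in points, for the 1762 regions. Colored points have at least 150 calls in every library, and in the left panel they lean from lower left to upper right.

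The lists of the 3 pairs overlapped in part. The AOM/DSS pair was also 20 points apart at 100 of the control-variable regions, which is 5.68% of these and 10.2% of the AOM/DSS list, and in 78 of the 100 the direction was the same. The curcumin pair was so at 70, 3.97% of the control-variable regions and 8.22% of the curcumin list, with 36 in the same direction. Each list holds mostly intermediate levels and low call numbers, so the background was taken at regions of 20 to 80% in the 4 treated libraries. There 6.15% of the chosen regions and 2.05% of the others were 20 points apart in the AOM/DSS pair, and 4.30% and 1.92% in the curcumin pair. The chosen regions had fewer calls, with a median of the fewest calls of 77 against 96 for the others. Their level in the 4 treated libraries also differed, with a median of 46.2% against 54.3% over all 40049 regions of 20 to 80%. Neither calls nor level were matched, and their part in these shares was not tested.

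At 9 regions all 3 pairs were at least 20 points apart. The widest, on chromosome 15 from 59165068 to 59165223 (9 CpGs, 71 to 127 calls), had 25% and 66.7% in the controls, 20% and 49.6% in AOM/DSS and 26.8% and 57.8% with curcumin. Each group thus held 1 low and 1 high library, and every library numbered 1 was the high one. On chromosome 8 the region from 91159845 to 91159983 (5 CpGs) had the same order, with 25.4% and 49.4%, 20% and 50%, and 45.1% and 67.4%. On chromosome 11 from 105317680 to 105317976 (15 CpGs) the levels were 50% and 22.5%, 33.6% and 59.8%, and 58.8% and 34%. On chromosome 1 from 108524028 to 108524172 (5 CpGs) they were 66.3% and 38.1%, 56.3% and 27.6%, and 41.4% and 65.2%. On chromosome 4 from 9010293 to 9010434 (8 CpGs, 51 to 80 calls) they were 27.0% and 58.7%, 32.8% and 56.3%, and 58.8% and 35.5%. In the last 3 the direction changed between groups. With at least 200 calls, no control-variable region was 20 points apart in another pair.

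Whether curcumin changed these regions under AOM/DSS was tested with the 4 treated libraries only, since the controls chose the regions. The mean level over the 1762 regions was 46.6% and 46.4% in AOM/DSS 0 and 1 and 46.8% and 46.3% in curcumin 0 and 1. The difference of the group means, 0.0652 points, was smaller than the spread within either group (exact permutation test, two-sided p = 1.0, with 0.33 the smallest that 2 against 2 allows). It took the opposite sign without AOM/DSS 1 (-0.0415) or curcumin 0 (-0.195).

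No control-variable region passed edgeR's quasi-likelihood test between curcumin and AOM/DSS, which asked for an adjusted p under 0.05 and group means 10 points apart. Over all regions 1 passed (0.000783%). With the replicate number as a block, a fit in which the numbers are not known to pair libraries, edgeR called 2 of the chosen regions, 1 higher and 1 lower, and 42 of all regions. Among the chosen regions limma called none. Pooling the calls of each group and using Fisher's exact test, with no spread between libraries, gave 87 of the chosen regions and 1584 of all 127691. At an unadjusted p under 0.05 and 10 points, 104 of the 1762 passed in edgeR, 46 higher and 58 lower with curcumin. Over all 127691 regions 2348 passed (1.84%), with 1526 higher (1.20%) and 822 lower (0.644%). The chosen regions lay mostly at intermediate levels, where 10 points are reached more easily, and no background of like level was taken. By the unadjusted p alone 109 of the 1762 chosen regions passed, and 7542 of all 127691 (5.91%). The lowest adjusted p among the chosen regions was 0.363 in edgeR, and over the alternatives it ran from 1.41e-09 (Fisher's exact test) to 0.967 (edgeR without curcumin 0). With 2 libraries a group, a region that missed the threshold is not shown to be alike in both groups.

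The 3 chosen regions per direction with the smallest p, none of which passed, follow with their levels. On chromosome 9 from 46023395 to 46023406 (3 CpGs, 62 to 102 calls) AOM/DSS had 63.4% and 64.5% and curcumin 25.9% and 28.4%, while control 0 had 65.9% and control 1 14.5% (edgeR adjusted p = 0.363). On chromosome 14 from 106300255 to 106300277 (3 CpGs) AOM/DSS had 57.1% and 47.8%, curcumin 17.7% and 21.6%, and the controls 32.9% and 6.86%. On chromosome 4 from 32473479 to 32473595 (6 CpGs) AOM/DSS had 56.8% and 56.7%, curcumin 33.8% and 26.0%, and the controls 56.4% and 30.7%. On chromosomes 9 and 4, control 0 stood near AOM/DSS, and control 1 was below curcumin on chromosome 9 and among its libraries on chromosome 4.

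Higher with curcumin was the region on chromosome 11 from 105895130 to 105895197 (5 CpGs), with 32.6% and 34% in AOM/DSS, 59.8% and 77.6% with curcumin and 33.8% and 64% in the controls (edgeR adjusted p = 0.455). The other 2, on chromosome 1 from 36365921 and on chromosome 13 from 73404859, had curcumin means of 12.5% and 52.3% against 3.50% and 27.4% in AOM/DSS. The groups did not overlap at these 6 regions, which were picked for a small p.

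At 3 regions with at least 100 calls all treated libraries lay on one side of both controls. On chromosome 10 from 111020127 to 111020259 (8 CpGs) the controls had 59.7% and 83.3% and the treated libraries 34.9 to 42.9%. On chromosome 3 from 5860292 to 5860492 (15 CpGs) the controls had 76.2% and 51.9% and the treated libraries 21.9 to 38.9%. On chromosome 2 from 30938093 to 30938400 (15 CpGs) the controls had 61.4% and 84.3% and the treated libraries 50.3 to 56.9%. All 3 were thus lower in every treated library than in either control, without a share over all regions compared to set beside them.

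The chosen regions with the most CpGs were on chromosomes 2, 9, 7, 17 and 15. That on chromosome 2 from 174125309 to 174125791 (38 CpGs, 245 to 408 calls) had 48.7% and 25.4% in the controls, 30.6% and 45.8% in AOM/DSS and 40.7% and 24.3% with curcumin. Replicate 0 minus 1 was thus 23.3, -15.2 and 16.5 points in the 3 groups. That on chromosome 7 from 20204825 to 20205262 (37 CpGs) had 55.1% and 34.9% in the controls and 42.9 to 53.4% in the treated libraries. That on chromosome 17 from 34816997 to 34817452 (36 CpGs) had 53.9% and 75.6% and 49.4 to 67.3%. That on chromosome 15 from 75865114 to 75865519 (33 CpGs) had 51.4% and 12.1% in the controls and 21.7 to 29.8% in the treated libraries. The chromosome 9 region is given above.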

How the data were processed

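Methylation was read by bisulfite sequencing of DNA captured with Agilent's mouse Methyl-Seq kit and deposited as counts: per region the authors' files give the number of CpGs, of methylation calls and of methylated calls, and per the file headers nothing is normalized. Build mm9 and the tools Bismark 0.15.0, R 3.4.0 and ChIPseeker 1.10.3 are named, without their steps, per the submitters' processing notes. The drawing of regions, any removal of duplicates and the counting of positions from 0 or 1 are not given in the sources. Blank values stand for under 20 calls. Reads carry no molecular identifiers, so intervals and counting SDs cover counting error only. The genes and promoters at hand belong to another build, so no region was tied to a gene and no sequence is printed.

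Levels, shares and distances were computed with Python 3.11.15, numpy 2.4.6, pandas 2.3.3 and scipy 1.17.1. Density is CpGs per 100 bases of the span from start to end. Curcumin was compared with AOM/DSS by edgeR 4.0.16 in R 4.3.3 (quasi-likelihood test on paired counts of methylated and of unmethylated calls, 1 coverage coefficient per library, Benjamini-Hochberg over 127691 regions). On simulated data it called 0 of 50 changes of 20 points, the rule's size, 7 of 50 of 40 points and 48 of 50 of 60 points. Changes well above the rule's size can thus be missed. The simulated spread between libraries was a fixed value. Changed regions were drawn at levels of 40 to 60% from all regions compared, so these counts do not measure the sensitivity at the chosen regions. limma 3.58.1 used log2 ratios with 2 added to each count. P-values measure the spread between these libraries, which may be technical. The chosen regions, the test and the naming rules were picked with earlier results of these data known. Regions are named by rule: per direction the 5 largest control differences with at least 100 calls, the 5 longest runs, the 5 widest in all 3 pairs, the 3 per direction with the smallest p between curcumin and AOM/DSS, 2 on each side of the threshold, the 5 with the most CpGs, and those with at least 100 calls whose treated libraries all lay on one side of both controls (up to 3, and 3 qualified). Alternatives were other minimum calls and differences, sex chromosomes, other distances, left-out libraries, a replicate block, pooled calls and other tests.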

Additional observations from a re-analysis of the deposited data

How the results depend on the processing

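The counts of regions 20 points apart follow the thresholds, and at each one the control pair had the most. In the order control, AOM/DSS and curcumin pair they were 4776, 3562 and 3431 with at least 20 calls, 548, 186 and 127 with 100, 89, 17 and 10 with 200, 4804, 3491 and 3008 at 15 points, and 244, 68 and 54 at 30 points. At like precision and intermediate level, the setting added later, they were 200, 61 and 29. The share of chosen regions apart in the AOM/DSS and the curcumin pair was 9.40% and 8.86% with 20 calls, 3.10% and 2.01% with 100, 0% and 0% with 200, 11.1% and 9.22% at 15 points in both pairs, and 1.23% and 1.23% at 30 points. The median CpG density was 3.80, 3.78 and 3.96 per 100 bases with 20, 100 and 200 calls, and 3.53 and 3.95 at 15 and 30 points. The share with another chosen region near was 2.25% with 200 calls, 8.74% at 15 points, 4.51% at 30 points and 9.53% within 5000 bases. Control 0 was the higher one at 69.7% with 200 calls and 56.1% at 30 points. The mean of the treated libraries was nearer to control 0 at 62.9% with 200 calls, and at 51.8 to 57.8% with each treated library left out in turn. Sex chromosomes moved none of these values by more than their counting interval.

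The mean difference of curcumin minus AOM/DSS turned to -0.375 points with 100 calls, -0.605 with 200 and -1.09 at 30 points, and ran from -0.195 to 0.326 with each library left out in turn, so its direction was not settled. The count of chosen regions called between curcumin and AOM/DSS stayed at 0 except with a replicate block and Fisher's exact test. The block gave 2, beside 42 of all 127691 regions, and Fisher's exact test 87, beside 1584. With a library left out, 1 group has a single library, assumed to vary like the other group. Whether libraries of the same number deviated together differed between the groups and with the regions taken. Over the regions compared, the deviations from the group means had r = 0.0866 between control 0 and AOM/DSS 0, 0.0117 between control 0 and curcumin 0, and 0.00820 between AOM/DSS 0 and curcumin 0. At the chosen regions the differences of the control and AOM/DSS pairs had r = 0.303, and those of the control and curcumin pairs 0.0132. The labels do not tie the numbers to a batch, so the replicate block rests on numbers alone. With 2 libraries a group these deviations mirror each other, so libraries of unlike number have the same r with the opposite sign. Depth limits the precision of the list, in which 840 of 1762 regions had under 75 calls in a library.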

Other observations

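Groups of control-variable regions with gaps of at most 5000 bases, formed after the data were seen, numbered 61 with 2 members, 10 with 3, 1 with 4 and 2 with 6. The group of 4, on chromosome 19 from 44375100 to 44379839, was higher in control 0 at all 4 regions, by a mean of 32.1 points. Of the 13 groups with at least 3 members, 9 were higher in control 0 throughout and 4 in control 1 throughout. The share of regions chosen ran from 1.06% on chromosome 18 to 1.75% on chromosome 1, and control 0 was the higher one at 46.0% of them on chromosome 8 and 67.7% on chromosome 14.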
